A study of Mus musculus with 18 samples.

Results

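The livers of 6 mice given atorvastatin were compared with those of 6 mice given vehicle, on 12 of the 18 arrays of the series. All mice were female C57BL/6, 16 weeks old, and had eaten a diet with 1% cholesterol for 1 week before the dose. Atorvastatin was given orally as a single dose of 40 mg/kg, the vehicle was tap water, and livers were taken 24 h later. The remaining 6 mice received rosuvastatin at 20 mg/kg on the same schedule. The arrays were taken by their labels alone, while the gene lists were chosen with earlier results of these data known. The values come from the intensities of each array for the 289 gene probes of the focused cDNA array Steroltalk. Of these, 188 probes for 184 genes were bright enough to be tested. No group without the cholesterol diet belongs to the series, so the diet is shared by treated and vehicle mice.

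Atorvastatin is a statin, a drug that blocks an early step of cholesterol synthesis in hepatocytes. When sterols in the endoplasmic reticulum run low, Scap escorts the SREBP transcription factors to the Golgi, where proteases release them, and the genes of the whole pathway are transcribed together. When sterols are plentiful, as after dietary cholesterol, the Insig proteins hold Scap and SREBP back.

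Pathway members varied together between mice, as their values by mouse show, so a pair of their promoters is given first. They are those of Hmgcs1, whose enzyme makes HMG-CoA, and of Mvk, mevalonate kinase. These hold the most motif matches among the measured members that had a promoter in the RefSeq table. The capitals mark the sterol-element-like motif TCACNCCAC and the CCAAT box, searched on both strands as CCAAT or ATTGG, which do not overlap here. Each run reads 5′ to 3′ from 250 bases before to 50 bases after the gene start (RefSeq, GRCm38.p6), for Hmgcs1 at chr13:119690101-119690400 on the + strand and for Mvk at chr5:114444019-114444318 on the + strand.
Hmgcs1: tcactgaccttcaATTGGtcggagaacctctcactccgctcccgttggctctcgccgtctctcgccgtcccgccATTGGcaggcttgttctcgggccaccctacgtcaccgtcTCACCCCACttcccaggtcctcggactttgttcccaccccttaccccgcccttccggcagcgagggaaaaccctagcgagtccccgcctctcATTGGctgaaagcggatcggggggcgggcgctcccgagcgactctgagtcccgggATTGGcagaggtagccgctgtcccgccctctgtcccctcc
Mvk: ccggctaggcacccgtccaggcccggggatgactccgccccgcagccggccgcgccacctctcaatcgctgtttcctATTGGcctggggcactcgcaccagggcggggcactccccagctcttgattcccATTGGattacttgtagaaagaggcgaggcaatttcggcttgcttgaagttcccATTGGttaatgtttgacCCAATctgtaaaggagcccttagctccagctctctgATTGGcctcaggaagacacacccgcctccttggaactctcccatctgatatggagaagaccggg
Of the 16 measured cholesterol synthesis genes, 12 had a promoter in the RefSeq table. Counting a gene when any of its windows held the motif, a CCAAT box lay in 11 of these 12, against 41.1% of the 27025 genes of the table. The motif TCACNCCAC lay in 1 of the 12, Hmgcs1, against 1.44% of all genes. A match is a description of these letters and was not tested as a binding site.

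Each value by mouse is a log2 ratio over a pooled reference that every array shared, and a log2 fold change is the difference between group means of these ratios. The median sample intensity of the gene spots was 219.5 to 376 over backgrounds of 73 to 146, and 162 to 218 of the 289 probes were above background on an array. The hepatocyte genes Alb, Apoa1, Apob, Apoc3, Cyp2e1, Cyp3a11 and Cyp1a2 were above background on 12 of 12 arrays and Pklr on 10. Of genes of other tissues, Lep, Star, Cyp11b2 and Cyp19a1 were above background on 0 arrays, Adipoq on 6, Retn on 2, Cyp11a1 on 7 and the endothelial genes Icam1 and Vcam1 on 5 and 2. In this bulk tissue, fewer cells of a type and less RNA per cell cannot be told apart. A pair of arrays stood apart. The median correlation of atorvastatin mouse 4 with the other arrays across probes was -0.46, and 0.01 without the probes of the serum amyloid genes. For vehicle mouse 5 it was 0.25, and -0.08 without these probes. Of the 1440 spots on its array, control spots included, 54 were saturated in the sample channel. Of the 188 tested probes, 1 had a saturated sample spot on any of the 12 arrays. The labels give atorvastatin mouse 4 and vehicle mouse 5 the same dyes as the rest. A ratio spike-in of atorvastatin mouse 4 also lay within the range of the other arrays (1.49 against 1.26 to 2.64), so its direction was kept. The value of 2.64 was that of vehicle mouse 5, and the next highest was 2.16.

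No gene passed the main test between atorvastatin and vehicle. In limma with Benjamini-Hochberg adjustment, 0 of 188 probes (0%) had an adjusted p under 0.05, and the smallest adjusted p was 0.381, for Ppia. With the replicate number as a block, Ppia and Cebpz passed (adjusted p = 0.0467 for both in limma), but the labels tie no same-numbered mice. An unadjusted p under 0.05 was reached by 16 probes (8.51%), of which 7 (3.72%) were higher and 9 (4.79%) lower, where chance gives 9.4. For 0 of 188 probes (0%) were the groups free of overlap. The count of 16 was 31 without vehicle mouse 5, and 10 without atorvastatin mouse 4 or without vehicle mouse 6. Of the 188 log2 fold changes, 86 were above 0 and 102 below, that is 45.7% above. The share above 0 was 58.5% with arrays centred on their median, 36.2% with arrays centred on the spike-ins and 29.4% in the deposited ratios. Both kinds of centring took the place of the loess normalisation within arrays. The calls at an unadjusted p under 0.05 were 11 higher and 3 lower with median centring, 0 with spike-in centring, and 0 higher and 5 lower in the deposited ratios.

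Within a group, mice of the median probe had an SD of 0.20 log2 units, against 0.09 between repeat spots of a probe on an array. Each mouse had 1 array, so the SD between mice also holds the spread of labelling, hybridisation and scanning, and the median SE of a difference was 0.11. The 95% interval lay within 1 log2 unit of 0 for 176 of 188 probes, within 0.5 for 133 and within 0.3 for 71. All log2 fold changes lay between -0.64 and 0.40, and 4 of them were beyond 0.5 in size.

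**Figure D1:**
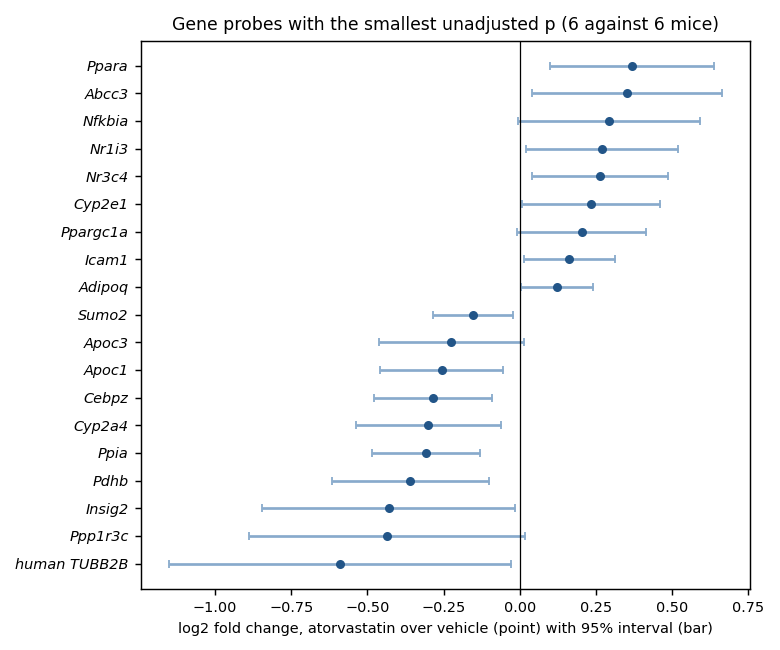
Log2 fold change of atorvastatin over vehicle (points) with its 95% confidence interval (bars) for the genes with the smallest unadjusted p, 6 mice in each group. Values lie between -0.59 for the human TUBB2B probe, which has the widest interval, and 0.37 for Ppara, and none of these genes passed the adjusted threshold.

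Ppia, cyclophilin A, which is widely used as a reference gene, had the smallest p. Its lowest, median and highest log2 ratios were -0.26, -0.12 and 0.10 in atorvastatin mice, against -0.09, 0.22 and 0.36 in vehicle mice. In 5 of the 6 atorvastatin mice it lay below every vehicle mouse, and only atorvastatin mouse 5 reached into the vehicle range. The log2 fold change was -0.31 (SE 0.08, unadjusted p = 0.00203 and adjusted p = 0.381 in limma).

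Cebpz had ratios of -0.32, -0.09 and 0.04 in atorvastatin mice, against -0.10, 0.14 and 0.48 in vehicle mice, again lowest, median and highest. The log2 fold change was -0.29 (SE 0.09, adjusted p = 0.424 in limma). The groups overlapped, with 3 atorvastatin mice below every vehicle mouse.

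Pdhb encodes a subunit of pyruvate dehydrogenase, which links glycolysis to the citrate cycle. Its ratios were -0.25, -0.06 and 0.17 in atorvastatin mice, against -0.01, 0.26 and 0.73 in vehicle mice, and the log2 fold change was -0.36 (SE 0.12, adjusted p = 0.424 in limma). Vehicle mice 1 and 6 were high, and 4 atorvastatin mice lay below every vehicle mouse.

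Ppara encodes the fatty acid receptor that drives fatty acid oxidation in the fasted liver. Ratios of -0.04, 0.11 and 0.32 were measured in atorvastatin mice, against -0.51, -0.27 and 0.09 in vehicle mice. Vehicle mice 2 and 5 overlapped the atorvastatin range. The log2 fold change was 0.37 (SE 0.13, adjusted p = 0.424 in limma). For Ppia, Cebpz, Pdhb and Ppara, all 6 atorvastatin mice lay beyond the vehicle mean on the same side. This held for 32 of the 188 probes.

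The signs of these values held with any 1 mouse left out. For genes picked by their small p in the same data, this is largely built in. Leaving out any 1 mouse gave -0.36 to -0.27 for Ppia, -0.34 to -0.22 for Cebpz, -0.42 to -0.27 for Pdhb and 0.31 to 0.44 for Ppara. The files record the area of the ring around each spot in which background was read, and 11 of the 18 arrays shared a ring of 197 pixels, called the common ring. Among its 3 atorvastatin and 4 vehicle arrays, the log2 fold change of Ppia was -0.20, with -0.22 for Cebpz, -0.28 for Pdhb and 0.22 for Ppara. With ring area as a block in all arrays the values were -0.24, -0.25, -0.32 and 0.25 in that order of genes.

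**Figure D2:**
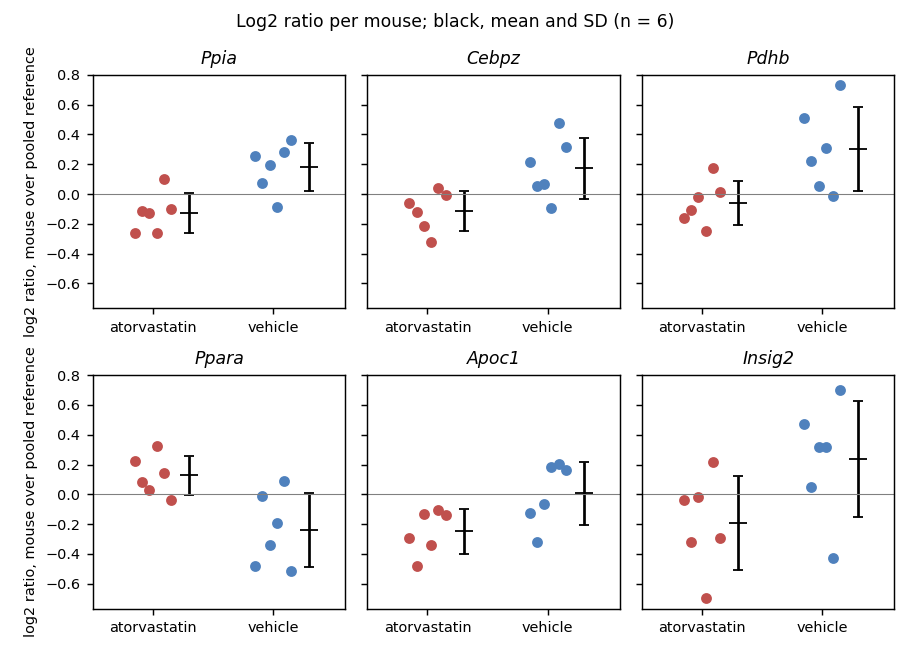
Log2 ratio over the pooled reference (y axis) of each of the 6 atorvastatin mice (left) and 6 vehicle mice (right) for 6 genes, with the mean and SD of each group in black. The groups overlap in every panel, most narrowly for Ppia, where 5 atorvastatin mice lie below all vehicle mice.

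Several other genes had values below 0 at an unadjusted p under 0.05. Apoc1, an apolipoprotein that slows the clearance of lipoprotein remnants, had ratios of -0.48, -0.22 and -0.10 in atorvastatin mice, against -0.32, 0.05 and 0.20 in vehicle mice, with a log2 fold change of -0.26 (adjusted p = 0.452 in limma). Cyp2a4, a steroid hydroxylase, had -0.12, 0.09 and 0.32 in atorvastatin mice, against 0.08, 0.45 and 0.66 in vehicle mice, a log2 fold change of -0.30. The groups overlapped for both, though 2 atorvastatin mice lay below all vehicle mice in each. Sumo2, a protein modifier, was at -0.15, with 4 atorvastatin mice below all vehicle mice. The human TUBB2B probe, made for a tubulin gene, was at -0.59, and -0.36 among common-ring arrays.

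Among genes above 0, Abcc3, an exporter of conjugated bile acids into blood, had ratios of -0.23, 0.17 and 0.37 in atorvastatin mice, against -0.74, -0.27 and 0.16 in vehicle mice. Its log2 fold change was 0.35 (adjusted p = 0.533 in limma). Nr1i3, the xenobiotic receptor CAR, had -0.48, -0.03 and 0.25 in atorvastatin mice, against -0.57, -0.29 and -0.17 in vehicle mice, and a log2 fold change of 0.27. For Nr1i3, 5 of 6 atorvastatin mice lay above every vehicle mouse and atorvastatin mouse 2 lay low. Among common-ring arrays Nr1i3 was at 0.12. Cyp2e1, an ethanol-inducible P450, was at 0.23. Its reference spots were saturated on 7 of the 12 arrays and its sample spots on 0, so that the reference was read too low there.

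Nr3c4, Adipoq and Icam1 also had an unadjusted p under 0.05 and were dim. Nr3c4 was at 0.26 and Adipoq, an adipocyte hormone, at 0.12, and both were above background on 4 atorvastatin and 2 vehicle arrays. Without vehicle mouse 5 Nr3c4 was at 0.17. Icam1, an adhesion molecule, was at 0.16, above background on 2 atorvastatin and 3 vehicle arrays. Adipoq was at 0.02 with arrays centred on the spike-ins. The remaining genes among the 20 smallest p-values had an unadjusted p of 0.0531 to 0.063. They were Nfkbia, an inhibitor of NF-kB (0.29), the coactivator Ppargc1a (0.20), Ppp1r3c, which targets a phosphatase to glycogen (-0.43), and Apoc3, an inhibitor of triglyceride clearance (-0.22). Nfkbia was at 0.20 without vehicle mouse 1 and at 0.17 among common-ring arrays, and Ppargc1a was at 0.13 without atorvastatin mouse 2.

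Cholesterol synthesis is the pathway that statins act on. Of its 16 measured genes, 3 had a log2 fold change above 0 and 13 below. The median was -0.10, against -0.01 over all 188 probes, and 0 genes had an unadjusted p under 0.05. Over all 188 probes, 45.7% were above 0 and 8.51% had an unadjusted p under 0.05 in limma. These are the shares to set beside every list below. The list median was 0.23 among common-ring arrays, and 0.05 with the sign of atorvastatin mouse 4 turned. Across single mice left out it ran from -0.24 without vehicle mouse 5 to -0.01 without atorvastatin mouse 4.

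In the mice, the mean of the 16 genes was 0.24, 0.06, -0.19, -0.53, 0.12 and 0.25 in atorvastatin mice 1 to 6, against 0.62, -0.06, 0.39, 0.01, -0.75 and 0.33 in vehicle mice 1 to 6. Atorvastatin mouse 4 and vehicle mouse 5 were the lowest, and the vehicle range enclosed the atorvastatin range. Group means were -0.01 ± 0.30 in atorvastatin mice and 0.09 ± 0.48 in vehicle mice (SD, n = 6 each). The common-ring arrays are those of atorvastatin mice 2, 5 and 6 and vehicle mice 2, 4, 5 and 6, so that the lowest vehicle mouse is among them and the lowest atorvastatin mouse is not.

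The early steps of the pathway make mevalonate and isoprenoids. Hmgcs1, shown above by its promoter, had ratios of -0.75, 0.18 and 0.46 in atorvastatin mice, against -1.06, 0.31 and 1.08 in vehicle mice. The log2 fold change was -0.15 (95% interval -0.76 to 0.46). Vehicle mice thus spanned the whole atorvastatin range. Fdps, farnesyl diphosphate synthase, had the most negative value of the list. Its ratios were -1.08, 0.06 and 0.19 in atorvastatin mice, against -1.82, 0.41 and 1.37 in vehicle mice, with a log2 fold change of -0.39 (interval -1.38 to 0.60), which was -0.79 without vehicle mouse 5 and -0.15 without vehicle mouse 1. All 6 atorvastatin mice lay below the vehicle mean, but none lay below vehicle mouse 5. Mvk was at -0.08, Mvd, mevalonate diphosphate decarboxylase, at -0.18 and Idi1, an isoprenoid isomerase, at -0.04. Acat2, a name used for a thiolase and for a cholesterol-esterifying enzyme, was at -0.15.

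The later steps turn farnesyl diphosphate into squalene, lanosterol and cholesterol. Cyp51, lanosterol demethylase, had ratios of -0.72, 0.17 and 0.49 in atorvastatin mice, against -1.69, 0.11 and 1.02 in vehicle mice. The medians were close and the log2 fold change was 0.07 (interval -0.71 to 0.86). Msmo1, the methylsterol oxidase of the next steps, had -1.04, -0.08 and 0.53 in atorvastatin mice, against -1.71, -0.01 and 0.49 in vehicle mice, with a log2 fold change of 0.08 (interval -0.73 to 0.89). Lss, lanosterol synthase, was at -0.29, Sc5d, a sterol desaturase, at -0.28 and Nsdhl at -0.12. Dhcr7, which catalyses a last step to cholesterol, and the sterol isomerase Ebp were both at -0.07, and Fdft1, squalene synthase, was at -0.01. Among common-ring arrays every gene named here was above 0 except Acat2 (-0.15), up to 0.71 for Cyp51 and 0.58 for Msmo1. Without vehicle mouse 5 in the full set, Cyp51 was at -0.26 and Msmo1 at -0.22. With median centring the sign turned for Dhcr7 (0.03) and Fdft1 (0.05).

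The pathway varied in concert from mouse to mouse. Across the 12 mice, after each group's mean was removed, the median pairwise correlation among the 16 genes was 0.81 over 120 pairs, against -0.00083 over all gene pairs. This is a description, since the points share arrays. The mice include atorvastatin mouse 4 and vehicle mouse 5, whose arrays stood apart, and no correlation without them was computed. Hmgcs1, Cyp51 and Fdps followed the mean of the other members most closely (r = 0.99, 0.98 and 0.97), while Acat2 (0.22) and Idi1 (0.25) followed it least. The SD between mice within a group, pooled over the 3 groups, was 0.69 for Cyp51 and 0.87 for Fdps.

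A mouse in each group set the low end. In the cholesterol synthesis list, atorvastatin mouse 4 was the lowest atorvastatin mouse for 16 of 16 genes, against 57 of the 188 probes (30.3%). Vehicle mouse 5 was the lowest vehicle mouse for 13 of 16, against 58 of the 188 (30.9%). In the acute phase and complement list the same mice lay at the other end. Atorvastatin mouse 4 was highest for 10 of 11 genes, against 24.5% of all probes, and vehicle mouse 5 for 7 of 11, against 31.9%. This pattern was picked after its values were seen, and these are the arrays that stood apart.

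Of the listed genes, the serum amyloid genes Saa1, Saa2 and Saa3, which encode acute phase proteins made by the liver, had the widest spread. Saa4 did not share it, with an SD between mice of 0.15, against 1.755 for Saa3. Saa1 had log2 ratios of -5.74, -4.69, -5.87, 1.65, -3.10 and -5.66 in atorvastatin mice 1 to 6, against -4.02, -2.54, -5.56, -4.91, -1.44 and -5.39 in vehicle mice 1 to 6. Atorvastatin mouse 4 was the only mouse above the pooled reference, and vehicle mouse 5 was the highest of its group. Saa2 and Saa3 followed the same order at the top, with 1.62 and 1.88 in atorvastatin mouse 4, and -1.45 and -1.41 in vehicle mouse 5. The log2 fold change of Saa3 was 0.17 (interval -1.81 to 2.16), and -0.83 without atorvastatin mouse 4. The fibrinogen gene Fgb (0.14 and 0.28), Hpx, which binds haem (0.26 and 0.38), and Stat3, the factor downstream of interleukin signals (0.41 and 0.63), were also highest in their groups in atorvastatin mouse 4 and in vehicle mouse 5.

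Of 3 measured fatty acid synthesis genes, 2 were lowest in atorvastatin mouse 4 and 2 in vehicle mouse 5. Fasn, fatty acid synthase, had ratios of -1.56, 0.01 and 0.62 in atorvastatin mice, against -1.50, 0.79 and 1.25 in vehicle mice, and the lowest values were those of atorvastatin mouse 4 and vehicle mouse 5. Its log2 fold change was -0.59 (interval -1.68 to 0.50), which was -0.98 without vehicle mouse 5 and -0.31 without atorvastatin mouse 4. Scd1, which makes monounsaturated fatty acids, was at -0.45, with reference spots saturated on 6 arrays, and the carbohydrate-sensing factor Mlxipl was at 0.08. The probe Acas2, a name shared by several genes, was the most negative of all at -0.64 (interval -1.65 to 0.38), with -1.04 without vehicle mouse 5 and -0.43 without atorvastatin mouse 4. Among common-ring arrays Fasn was at 0.02, Acas2 at 0.15 and Scd1 at -0.03.

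**Figure D3:**
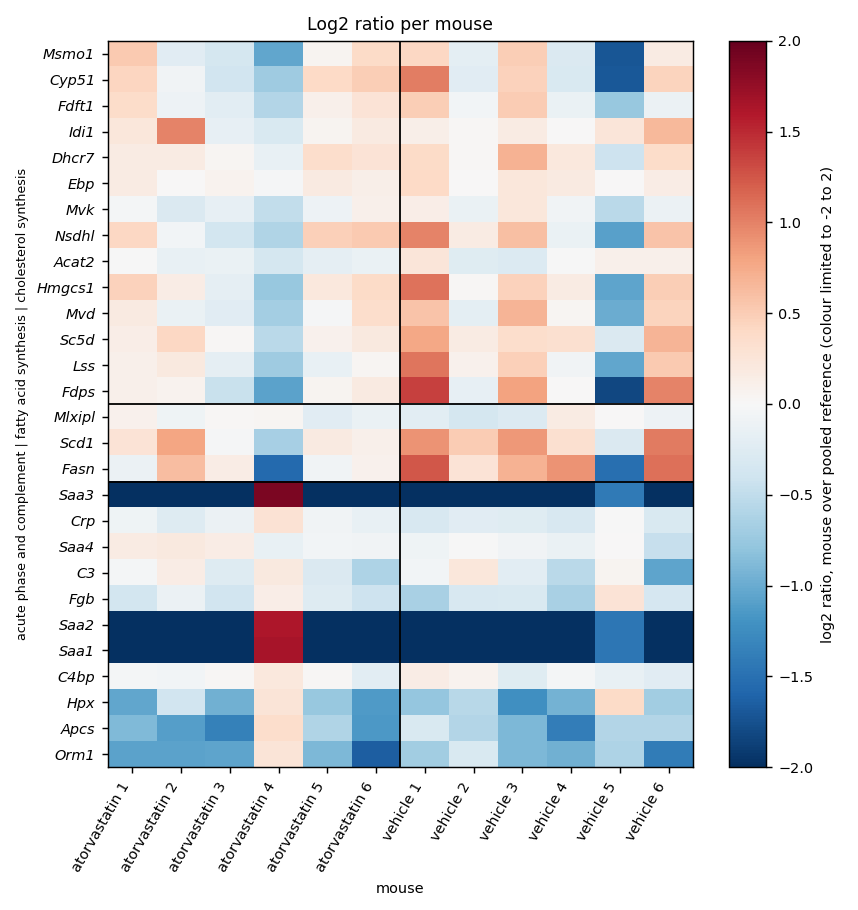
Log2 ratio over the pooled reference (colour, limited to -2 to 2) of the 6 atorvastatin mice (left) and 6 vehicle mice (right) for named genes of 3 lists, cholesterol synthesis on top, then fatty acid synthesis, then acute phase and complement. Atorvastatin mouse 4 and vehicle mouse 5 are blue for most cholesterol genes, with -1.08 and -1.82 for Fdps, and highest of their group for Saa1, with 1.65 and -1.44.

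In the SREBP pathway list, 2 of 5 measured genes were above 0 and 3 below, with a median of -0.13 (0.01 among common-ring arrays) and 1 gene at an unadjusted p under 0.05. That gene was Insig2, a sterol-dependent anchor of Scap, with ratios of -0.70, -0.16 and 0.22 in atorvastatin mice, against -0.43, 0.32 and 0.70 in vehicle mice. All 6 atorvastatin mice lay below the vehicle mean but only atorvastatin mouse 4 lay below vehicle mouse 5. The log2 fold change was -0.43 (SE 0.20, unadjusted p = 0.0432 and adjusted p = 0.533 in limma). Its partner Insig1, itself a target of SREBPs, was at 0.00 (interval -0.63 to 0.63), and at 0.38 among common-ring arrays. Scap was at 0.03 and Mbtps1, the protease that first cuts SREBPs, at -0.14, dim and above background on 3 atorvastatin and 4 vehicle arrays. Without atorvastatin mouse 2, at -1.28, Mbtps1 was at 0.04.

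In the lists on drug metabolism no gene passed the adjusted threshold. All 5 measured xenobiotic receptor and haem synthesis genes were above 0, against 45.7% of all 188 probes, with a median of 0.21. Of these 5 genes, 1 had an unadjusted p under 0.05 in limma, against 8.51% of all probes. Besides Nr1i3, Alas1, which sets the rate of haem synthesis, was at 0.39, with ratios of -0.89, -0.11 and 0.27 in atorvastatin mice, against -1.08, -0.55 and -0.23 in vehicle mice. In 4 of 6 atorvastatin mice it lay above all vehicle mice, and atorvastatin mouse 1 was low. Rxra, the common partner of these receptors, was at 0.21 and Nr1i2, the receptor PXR, at 0.14. The Nr1i2 probe was dim, above background on 3 atorvastatin and 2 vehicle arrays. Rxrb was at 0.09, which was -0.01 with arrays centred on the spike-ins. Among common-ring arrays the list median was 0.06, although Alas1 was at 0.74 there.

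Of the P450 genes of drug metabolism, whose products oxidise drugs and steroids, 16 were measured. Of these, 3 were above 0 and 13 below, with a median of -0.07, where 45.7% of all 188 probes were above 0. An unadjusted p under 0.05 in limma was reached by 1 gene in each direction, against 3.72% of all probes higher and 4.79% lower. The genes were Cyp2e1 (higher) and Cyp2a4 (lower), given above. The main drug-metabolising genes Cyp3a11, Cyp2b10 and Cyp1a2 were at -0.12, -0.05 and -0.22. The reference spots of Cyp3a11 were saturated on 12 of the 12 arrays.

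The values of bile acid genes lay near 0. Of the 7 measured, 4 were above 0 and 3 below, with a median of 0.01, which was -0.04 with spike-in centring, and 0 genes at an unadjusted p under 0.05. Cyp7a1, the rate-limiting enzyme of bile acid synthesis, was at -0.04 (interval -0.42 to 0.34). Its probe was dim, above background on 3 atorvastatin and 3 vehicle arrays. Cyp8b1, which makes cholic acid, was at 0.08 but ranged from -1.80 to 0.46 in atorvastatin mice and from -1.71 to 0.56 in vehicle mice. Cyp39a1, an oxysterol hydroxylase, was at -0.13, and the bile acid receptor Nr1h4 at -0.12. Of 12 bile acid and drug transporters, 5 were above 0 and 7 below, with Abcc3 (0.35) and Slco1a4, an organic anion importer (-0.22), at the ends. In the list of LXR and sterol efflux genes 1 of 5 was above 0, Scarb1, the receptor for high-density lipoprotein, at 0.12 and at -0.04 without vehicle mouse 6, and the median was -0.09.

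Among genes of fuel metabolism, 3 of 4 fatty acid oxidation genes were above 0, with a median of 0.18. These were Ppara, Ppargc1a and Cpt1a (0.16), which imports fatty acids into mitochondria, while Ucp2 was at -0.30. The Ucp2 probe was dim, above background on 3 atorvastatin and 4 vehicle arrays. Of 9 glucose metabolism and insulin signalling genes, 4 were above 0 and 5 below. The gluconeogenic Pck1 was at 0.28, or 0.45 without vehicle mouse 5, while Ppp1r3c had ratios of -1.13, -0.71 and 0.06 in atorvastatin mice, against -0.44, -0.23 and 0.11 in vehicle mice. In 4 atorvastatin mice Ppp1r3c lay below all vehicle mice. Its log2 fold change was -0.43 (interval -0.89 to 0.02). Of 9 apolipoprotein and lipid transport genes, 3 were above 0 and 6 below, led by Apoc1 and Apoc3 at the low end and Apoa5, an activator of lipolysis, at 0.08.

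Inflammation, clock and steroid genes were also on the array. Of 11 acute phase and complement genes, 8 were above 0 with a median of 0.10, but the median was -0.22 without atorvastatin mouse 4. Saa4, a constitutive serum amyloid, was at 0.17, or 0.10 without vehicle mouse 6, and Orm1 at -0.10. Their reference spots were saturated on 5 and 7 of the 12 arrays and their sample spots on 0, so that the reference was read too low there. All 3 cytokine and NF-kB signalling genes were above 0, Nfkbia, Icam1 and Stat3 (0.11, and 0.01 without atorvastatin mouse 4). Nr1d2, a repressor of the clock, had the highest log2 fold change of all at 0.40, with ratios of -0.15, 0.35 and 1.37 in atorvastatin mice, against -0.48, -0.19 and 0.89 in vehicle mice. Without atorvastatin mouse 4 it was at 0.22. Its counterpart Arntl, the clock activator BMAL1, was at -0.18 (ratios -0.66 to 0.09 in atorvastatin mice and -0.12 to 0.14 in vehicle mice), and at -0.08 without atorvastatin mouse 4. Cyp17a1, a steroid hydroxylase, was at -0.47, with 4 atorvastatin mice below all vehicle mice and an interval of -1.02 to 0.09.

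The remaining lists were described by their counts. Stress kinases and immediate early genes had 2 of 5 above 0, Fos at 0.13 (0.04 without atorvastatin mouse 4) and Mapk8, a stress kinase, at -0.13. The Fos probe was dim, above background on 2 atorvastatin and 3 vehicle arrays. Other nuclear receptors had 4 of 5 above 0, between -0.02 for Nr2f2 and 0.06 for Rara. The Rara probe was above background on 4 atorvastatin and 3 vehicle arrays. Liver transcription factors and cofactors had 5 of 9 above 0 and a median of 0.10, or -0.01 in the deposited ratios, with Hnf4a, a master regulator of hepatocytes, at 0.19 (0.09 without vehicle mouse 6) and Cebpz and Sumo2 at the low end. Adipokines had 2 of 3 above 0 and a median of 0.06, or -0.08 in the deposited ratios, with Adipor2, an adiponectin receptor, at -0.07. The reference gene list had 0 of 3 above 0 and a median of -0.30.

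**Figure D4:**
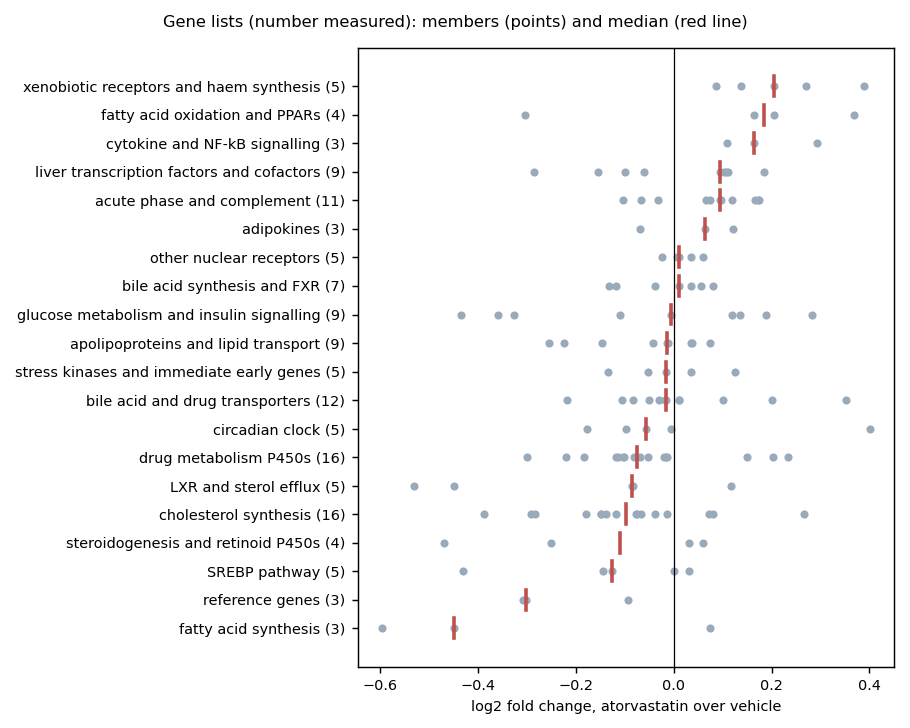
Log2 fold change of atorvastatin over vehicle for the measured members of each gene list (points) with the list median (red line), the number of measured genes in brackets. Medians run from -0.45 for fatty acid synthesis to 0.21 for xenobiotic receptors and haem synthesis, and no list was tested.

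Some genes had more than 1 probe. The probes of Ppargc1a gave 0.20 and 0.08, and those of Slc10a1, the bile acid importer, gave -0.01 and -0.02. The probes of Actb, beta-actin, disagreed in sign, at -0.09 and 0.18, the second being above background on 3 atorvastatin and 6 vehicle arrays.

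Rosuvastatin, the other statin, was given at a different dose, so that drug and dose cannot be told apart, and both comparisons with vehicle share the same 6 vehicle arrays. The ring at the core of atorvastatin is a pyrrole, and that of rosuvastatin a pyrimidine. Rosuvastatin against vehicle had 12 probes at an unadjusted p under 0.05 (6.38%) and 0 past the adjusted threshold. Set directly against rosuvastatin, atorvastatin had 10 such probes (5.32%), and 0 passed after adjustment over 188 probes, with a smallest adjusted p of 0.653 in limma. The difference between the statins in Ppia was -0.13 (interval -0.31 to 0.05) and in Apoc1 -0.28 (unadjusted p = 0.00837 in limma). For Cebpz it was -0.25, with log2 fold changes against vehicle of -0.29 for atorvastatin and -0.04 for rosuvastatin. In that order of drugs, the values against vehicle were -0.31 and -0.18 for Ppia, -0.36 and -0.17 for Pdhb, and 0.37 and 0.23 for Ppara. For Apoc1 they were -0.26 and 0.03, for Nr1i3 0.27 and 0.37, for Nfkbia 0.29 and 0.31, and for Abcc3 0.35 and 0.28. These genes were picked with their values known. For cholesterol synthesis the median log2 fold change against vehicle was -0.10 for atorvastatin, with 13 of 16 genes below 0, and -0.40 for rosuvastatin, with 15 of 16 below 0. Between the statins the interval for Msmo1, the widest apart of the named members, was -0.06 to 1.56. The xenobiotic receptor and haem synthesis list had medians against vehicle of 0.21 for atorvastatin and 0.30 for rosuvastatin. For drug metabolism P450s they were -0.07 and 0.12.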

How the data were processed

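Liver RNA of each mouse was labelled with Cy3 and hybridised against a common pooled reference labelled with Cy5, without dye swaps. Per the file headers, the deposited intensity values are median spot and local background brightness per channel, on a linear scale and not background-corrected. A table of log2 ratios, deposited by the authors, served only as an alternative. The image software is not given in the sources used here. In R 4.3.3 with limma 3.58.1, both channels were corrected by normexp (offset 50), the log2 ratio was normalised by loess within each array with control spots at weight 0, and spots of a probe were averaged. A probe was kept when its sample signal passed background plus 2 background SDs on at least 6 arrays. All 18 arrays entered a single limma fit with group means and no block, with Benjamini-Hochberg adjustment over 188 probes, two-sided, at 0.05. The fit was tested on simulated data with independent normal noise for each probe. That setting holds neither correlation between probes nor arrays that stand apart, so the test does not cover these features of the data. The number of arrays limits the precision.

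Named were the 20 smallest p-values, the 5 highest and 5 lowest changes, all measured cholesterol synthesis and SREBP genes, and of other lists with at least 3 genes the smallest-p, highest and lowest member; further list members and the probes of genes with several probes were named after their values were seen. A gene with several probes was given by its brightest probe. Of 289 probe names, 273 matched a RefSeq symbol. Members and lists were chosen with earlier results of these data known, and a few rule-named genes are left out of the text but stay in counts and medians. Alternatives changed the background correction, centring (in place of loess), filter, blocks and arrays.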

Additional observations from a re-analysis of the deposited data

Results flagged for a closer look

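Of 170 checks of a named gene or list mean within a group of 6 mice, 18 had a mouse far from the other 5 by Dixon's criterion, where chance gives about 8.5 at 1 in 20. Values are log2 ratios over the pooled reference.

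Atorvastatin mouse 4 was such a mouse for Fasn (-1.56), Saa3 (1.88), Stat3 (0.41) and Fos (0.48), and for the means of the lists acute phase and complement (0.61), cytokine and NF-kB signalling (0.20) and stress kinases and immediate early genes (0.10). Atorvastatin mouse 1 was high for Nr3c4 (0.39).

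Vehicle mouse 5 was low for Nr3c4 (-0.58), Fasn (-1.50), Msmo1 (-1.71), Adipor2 (-0.43) and the adipokine mean (-0.11), and high for the mean of liver transcription factors and cofactors (0.13). Vehicle mouse 6 was high for Idi1 (0.64) and Mbtps1 (0.20) and low for Saa4 (-0.46), and vehicle mouse 2 was high for the mean of stress kinases and immediate early genes (0.18). Atorvastatin mouse 4 and vehicle mouse 5 are the arrays with low correlation to the rest, and the part of array quality in these values was not tested.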

How the results depend on the processing

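The signs and sizes below are log2 fold changes of atorvastatin over vehicle. In 1 of the planned fits did probes pass the adjusted threshold. With the replicate number as a block, 2 passed, Ppia and Cebpz (adjusted p = 0.0467 for both in limma). Their values stay at -0.31 and -0.29 in that fit by design, since each number occurs once in every group. The replicate numbers were not taken as pairs, since the labels tie no same-numbered mice and their deviations correlated with r above 0.1 in 3 of 6 pairs (0.38, 0.45 and 0.61), and 1 of 6 atorvastatin mice correlated best with its own number. Over all alternatives and single mice left out, 0 probes passed otherwise, with a smallest adjusted p of 0.0703 without vehicle mouse 4. The cause of the changes below was not tested.

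The count at an unadjusted p under 0.05, 16 in the report, was 0 with spike-in centring, 5 in the deposited ratios, 8 with ring area as a block, 2 on the common-ring arrays, 7 with the sign of atorvastatin mouse 4 turned, and 10 to 31 with single mice left out. Fewer arrays enter the common-ring fit, and fewer probes the fit of the deposited ratios.

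List medians moved by more than the spread between mice as follows. Xenobiotic receptors and haem synthesis were at 0.32 with plain subtraction and 0.32 with median centring, and 0.059 on the common-ring arrays. Stress kinases were at 0.080 with median centring and -0.087 in the deposited ratios. Apolipoproteins were at -0.13 with spike-in centring and -0.24 in the deposited ratios. Liver transcription factors were at 0.015 with spike-in centring, 0.018 for probes above background on all 18 arrays, -0.011 in the deposited ratios, -0.023 on the common-ring arrays and -0.0052 with the sign turned. With only probes above background on all 18 arrays, which leaves 7, 1 and 2 members of these lists, glucose metabolism was at 0.12, steroidogenesis at -0.47 and adipokines at -0.0017. In the deposited ratios the circadian clock was at -0.17 and adipokines at -0.082. Reference genes were at -0.069 with the sign turned.

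Signs turned as follows. Without background correction, the sign turned for Fdft1 (0.0039). With plain subtraction, the sign turned for Fdft1 (0.014) and Nr2f2 (0.010). With median centring, the sign turned for Dhcr7 (0.030), Fdft1 (0.050) and Nr2f2 (0.029). With spike-in centring, the sign turned for Insig1 (-0.052), Scap (-0.0034) and Rxrb (-0.0076). In the deposited ratios, the sign turned for Dhcr7 (0.014), Insig1 (-0.067), Scap (-0.077), Mlxipl (-0.012) and Rxrb (-0.033). With array weights, the sign turned for Idi1 (0.00015), Saa3 (-0.34) and Actb (0.038). With ring area as a block, the sign turned for Dhcr7 (0.058), Fdft1 (0.078), Idi1 (0.036), Mvk (0.011), Nsdhl (0.016) and Saa3 (-0.27). On the common-ring arrays, the sign turned for Acas2 (0.15), Fasn (0.025), Dhcr7 (0.22), Ebp (0.019), Fdft1 (0.36), Fdps (0.34), Hmgcs1 (0.34), Idi1 (0.18), Lss (0.15), Mvd (0.24), Mvk (0.12), Nsdhl (0.44), Sc5d (0.015), Mlxipl (-0.078), Cyp39a1 (0.0023), Scarb1 (-0.024), Saa3 (-0.67), Stat3 (-0.10), Rara (-0.036) and Adipor2 (0.055). Without atorvastatin mouse 4 and vehicle mouse 5, the sign turned for Cyp51 (-0.11), Idi1 (0.062), Insig1 (-0.035), Msmo1 (-0.039), Saa3 (-0.45) and Actb (0.035). With the sign of atorvastatin mouse 4 turned, the sign turned for Nr1d2 (-0.054), Fdft1 (0.18), Hmgcs1 (0.10), Idi1 (0.064), Mvd (0.045), Mvk (0.087), Nsdhl (0.084), Rxrb (-0.0042), Saa3 (-0.45), Stat3 (-0.027), Fos (-0.036), Arntl (0.043), Cyp11a1 (-0.028) and Rara (-0.0047). With single mice left out, values on both sides of 0 were found for Cyp51 (-0.26 to 0.29), Insig1 (-0.16 to 0.12), Msmo1 (-0.22 to 0.27), Cyp8b1 (-0.18 to 0.37), Nr2f2 (-0.062 to 0.024), Fdft1 (-0.16 to 0.10), Mbtps1 (-0.23 to 0.039), Idi1 (-0.20 to 0.055), Scap (-0.0082 to 0.094), Hmgcs1 (-0.40 to 0.028), Nsdhl (-0.37 to 0.043), Saa3 (-0.83 to 0.56), Orm1 (-0.34 to 0.045), Apoa5 (-0.016 to 0.17), Dhcr7 (-0.19 to 0.031), Actb (-0.20 to 0.019) and Scarb1 (-0.044 to 0.28).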
